A study of Manihot esculenta with 4 samples.

Results

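Steady genes are genes whose transcript level is much the same in every sample of a study, here 216 well-expressed genes of the cassava leaf. They were chosen by their FPKM (fragments per kilobase of transcript, scaled to the mapped fragments of the library) in all 4 libraries of the series, as deposited. A gene had to lie on a numbered chromosome, span at least 500 bases, be listed in every library and have a mean of at least 50 and below 300 FPKM. Its highest FPKM had to stand at most 25% above its lowest. Of 27146 genes listed in at least 1 library, 1777 met every criterion but the last, and they are called the abundance class below. The 216 steady genes are 12.2% of that class. The rule fixed this evenness, so the levels of these genes are a description and no test was made of them.

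Cassava, Manihot esculenta, is a root crop of the tropics. Leaves of 2 cultivars, Xinxuan048 and KU50, were sequenced from plants under drought stress and from control plants under normal conditions. The 4 groups are Xinxuan048 drought, Xinxuan048 control, KU50 drought and KU50 control, with 1 library each and no replicate, so no value below has an error within its group. The labels give no duration or severity of the drought, no plant age and no number of plants per library. FPKM totals lay between 611226 and 636034 per library, and 24405 to 25336 genes were listed. The number of sequenced fragments is unknown.

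Genes of even transcript level serve as reference genes, against which other genes are measured in quantitative PCR. Many reference genes in common use encode parts of machinery that every cell needs, such as the cytoskeleton, protein synthesis and protein turnover. FPKM express each gene relative to the mapped fragments of its library, so a level that is even in FPKM is even relative to those fragments. A different choice of what to hold constant gives every library another factor and can make other genes the even ones. In a whole leaf, fewer cells of a type and less RNA per cell cannot be told apart.

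The genes are given by their MANES locus tags. None of the tags was found in a RefSeq table of 34312 cassava genes (0 of 27146), and the files pair no tag with a name, so no function is given for any gene and the leaf's marker genes were not examined. No table used here holds their sequences. Near-identical copies of a gene are likewise not marked in the sources used here, and values of such genes are uncertain. Positions are those of the deposited files, and their genome build is not given in the sources used here.

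The most even gene was MANES_03G090800, at bases 15553480 to 15561878 of chromosome 3. Its level was 104 FPKM in Xinxuan048 drought, 103 in Xinxuan048 control, 102 in KU50 drought and 102 in KU50 control. Its highest value stood 2.06% above its lowest, and neither drought nor cultivar separated the libraries by more than that. MANES_12G084300, on chromosome 12 from 10444866 to 10445898, followed with 131 FPKM in Xinxuan048 drought, 134 in Xinxuan048 control, 137 in KU50 drought and 136 in KU50 control. Its ratio of highest to lowest was 1.04, with both KU50 libraries slightly above both Xinxuan048 libraries as deposited. MANES_06G010600, a long locus on chromosome 6 from 1561155 to 1580615, had 98.3 FPKM in Xinxuan048 drought, 94.3 in Xinxuan048 control, 93.2 in KU50 drought and 97.3 in KU50 control. Drought was slightly higher in Xinxuan048 and slightly lower in KU50. MANES_11G065200, on chromosome 11 from 6703766 to 6713599, had 167 FPKM in Xinxuan048 drought, 162 in Xinxuan048 control, 157 in KU50 drought and 161 in KU50 control, with the same pattern.

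The next 4 by the same order spread a little wider. MANES_05G009000 on chromosome 5 had 70.8 FPKM in each Xinxuan048 library, 74.9 in KU50 drought and 75.5 in KU50 control. MANES_01G251300 on chromosome 1 had 76.6 FPKM in Xinxuan048 drought, 78.1 in Xinxuan048 control, 81.8 in KU50 drought and 80.4 in KU50 control. As deposited, both were slightly higher in the KU50 libraries than in the Xinxuan048 libraries. With the TMM factors given below, Xinxuan048 was instead the higher cultivar in each condition for both genes. MANES_08G035700 on chromosome 8 had 61.4 FPKM in Xinxuan048 drought, 59.2 in Xinxuan048 control, 63.3 in KU50 drought and 60.3 in KU50 control, with drought above control in each cultivar. MANES_14G159000 on chromosome 14 had 132 FPKM in Xinxuan048 drought, 133 in Xinxuan048 control, 139 in KU50 drought and 142 in KU50 control. The ratios of highest to lowest of these 4 genes were between 1.07 and 1.08.

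Over all 216 genes the ratio of highest to lowest had a median of 1.18, with 19 genes within 10%, 68 within 15% and 132 within 20%. The coefficient of variation over the 4 libraries was 0.973% to 11.7%, with a median of 7.40%. The members crowd toward the limit rather than toward perfect evenness. Just inside it lay MANES_06G112100 at a ratio of 1.2488, MANES_01G003200 at 1.2489 and MANES_05G107700 at 1.2491. Just outside lay MANES_01G255800 at 1.2505, MANES_15G055400 at 1.2506 and MANES_12G126900 at 1.2511. These 6 ratios are nearly equal, and no replicate shows how far such a ratio would vary. MANES_05G107700, the last one in, had 138 FPKM in Xinxuan048 drought, 155 in Xinxuan048 control, 172 in KU50 drought and 147 in KU50 control. MANES_01G255800, the first one out, had 77.9 FPKM in Xinxuan048 drought, 80.2 in Xinxuan048 control, 77.5 in KU50 drought and 64.1 in KU50 control, and only KU50 control set it apart.

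The steady genes cover the whole abundance class. MANES_03G160100 on chromosome 3 had the highest mean, with 268 FPKM in Xinxuan048 drought, 328 in Xinxuan048 control, 278 in KU50 drought and 268 in KU50 control. MANES_15G160600 on chromosome 15 had the lowest mean, with 50.6 FPKM in Xinxuan048 drought, 54.1 in Xinxuan048 control, 46.0 in KU50 drought and 49.7 in KU50 control. Both were highest in Xinxuan048 control. The median of the mean FPKM was 79.8 for the steady genes and 80.9 for the 1561 other genes of the class. Together the steady genes held 3.50% of all FPKM in Xinxuan048 drought, 3.46% in Xinxuan048 control, 3.52% in KU50 drought and 3.33% in KU50 control. Genes with a mean of 300 FPKM or more held 32.2% in Xinxuan048 drought, against 41.4% in Xinxuan048 control, and 28.2% in KU50 drought, against 38.9% in KU50 control.

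No library was the high one or the low one for most steady genes. The highest value was that of Xinxuan048 drought for 61 genes (28.2%), of Xinxuan048 control for 56 (25.9%), of KU50 drought for 59 (27.3%) and of KU50 control for 40 (18.5%). The lowest was in Xinxuan048 drought for 49 (22.7%), in Xinxuan048 control for 42 (19.4%), in KU50 drought for 63 (29.2%) and in KU50 control for 62 (28.7%). In the rest of the class no library held most genes either. There the highest value was in Xinxuan048 drought for 21.7%, Xinxuan048 control for 27.7%, KU50 drought for 33.3% and KU50 control for 17.3%. The lowest was in Xinxuan048 drought for 19.3%, Xinxuan048 control for 30.6%, KU50 drought for 28.1% and KU50 control for 22.0%. Set against each gene's own mean, the median steady gene stood at 101% in Xinxuan048 drought, Xinxuan048 control and KU50 drought, and at 97.8% in KU50 control.

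**Figure D1:**
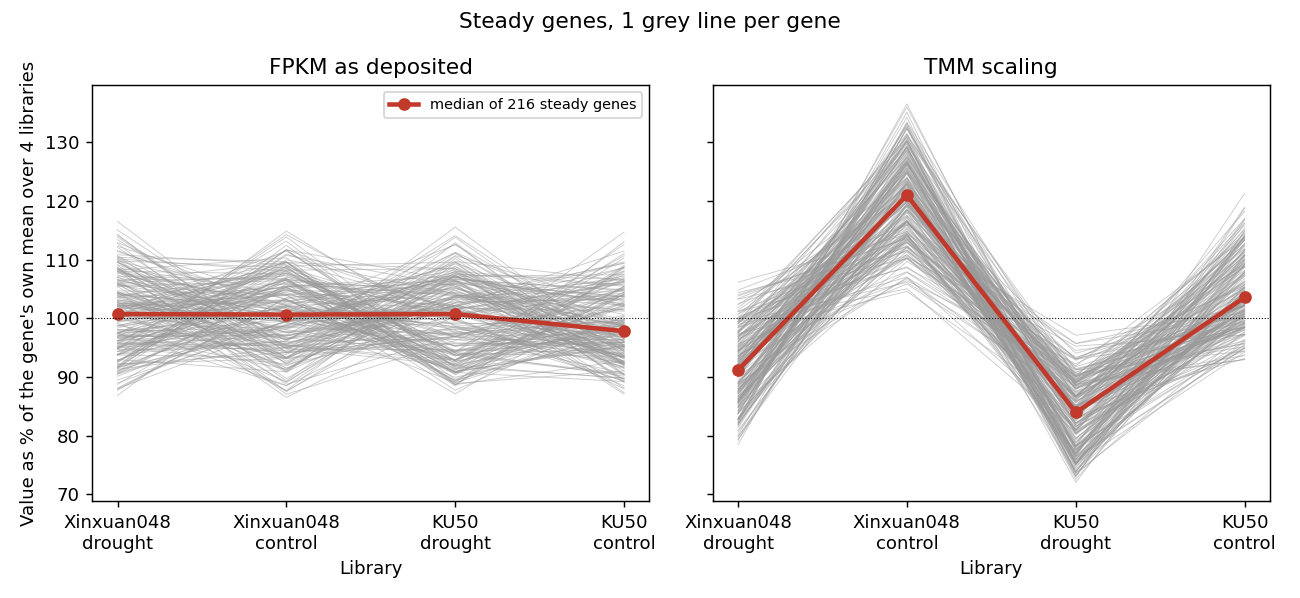
Values of the 216 steady genes in the 4 libraries (horizontal axis) as a percentage of each gene's own mean over the libraries (vertical axis), as FPKM deposited by the authors on the left and after TMM scaling on the right. Each grey line is 1 gene and the red line is the median. As deposited the medians lie between 97.8% and 101%, and after TMM scaling they are 91.2% in Xinxuan048 drought, 121% in Xinxuan048 control, 83.9% in KU50 drought and 104% in KU50 control. The lines join libraries for the eye only.

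The study asks how the leaf's transcripts respond to drought, and for steady genes the rule bounds that response. The median log2 ratio of drought over control was -0.0043 in Xinxuan048 and 0.030 in KU50 for the 216 genes. It was 0.045 in Xinxuan048 and 0.12 in KU50 for the rest of the class. Over the 19459 genes listed in all 4 libraries with a mean of at least 1 FPKM it was 0.43 in Xinxuan048 and 0.34 in KU50. As deposited, the steady genes, whose ratio the rule bounds, and the rest of the class both stood below the typical gene of the leaf. With quantile normalization, described below, the gap was smaller. The steady medians were then -0.031 in Xinxuan048 and -0.069 in KU50, against 0.022 in Xinxuan048 and 0.049 in KU50 over the 19459 genes. Of the 216, 64 were higher under drought in both cultivars and 56 lower in both. Another 40 were higher in Xinxuan048 and lower in KU50 (18.5%, against 9.74%), and 56 the reverse (25.9%, against 12.4%). The 2 directions were opposite for 44.4% of steady genes and for 22.2% of the rest of the class, and the rule, which keeps small differences, bears on the share among steady genes.

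Between the cultivars, the median log2 ratio of Xinxuan048 over KU50 was 0.021 under drought and 0.035 in control for the steady genes. For the rest of the class it was -0.022 under drought and 0.011 in control. In both conditions Xinxuan048 was the higher cultivar for 77 steady genes (35.6%) and the lower for 49 (22.7%). In the rest of the class it was the higher for 31.8% and the lower for 31.9%. The comparisons within a cultivar share libraries with those within a condition.

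As deposited, evenness was more common between cultivars than between drought and control. The shares that follow were not computed on another scale. In the class, 42.8% of genes were within 25% between drought and control in Xinxuan048 and 41.7% in KU50. Between Xinxuan048 and KU50, 56.4% were within 25% under drought and 64.9% in control. Both drought comparisons stayed within the limit for 26.3% of the class, both cultivar comparisons for 40.3%, and all 4 for 15.5%. That is 276 genes, of which the 216 also held the limit between libraries that differ in cultivar and condition at once. Some genes were even in one respect alone. Within 25% between the cultivars in both conditions, 26 genes stood higher under drought by 2-fold or more in both cultivars, and 9 stood lower by that much. Within 25% under drought in both cultivars, 1 gene was at least 2-fold apart between the cultivars in both conditions.

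The rest of the class was less even by definition, since the rule left in it every gene above the limit. Of its 1561 genes, 488 had a highest value at least 2 times the lowest and 110 at least 4 times, with a median ratio of 1.70. In that sense the steady genes are the narrow end of a continuous range, whose median over the whole class was 1.62.

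**Figure D2:**
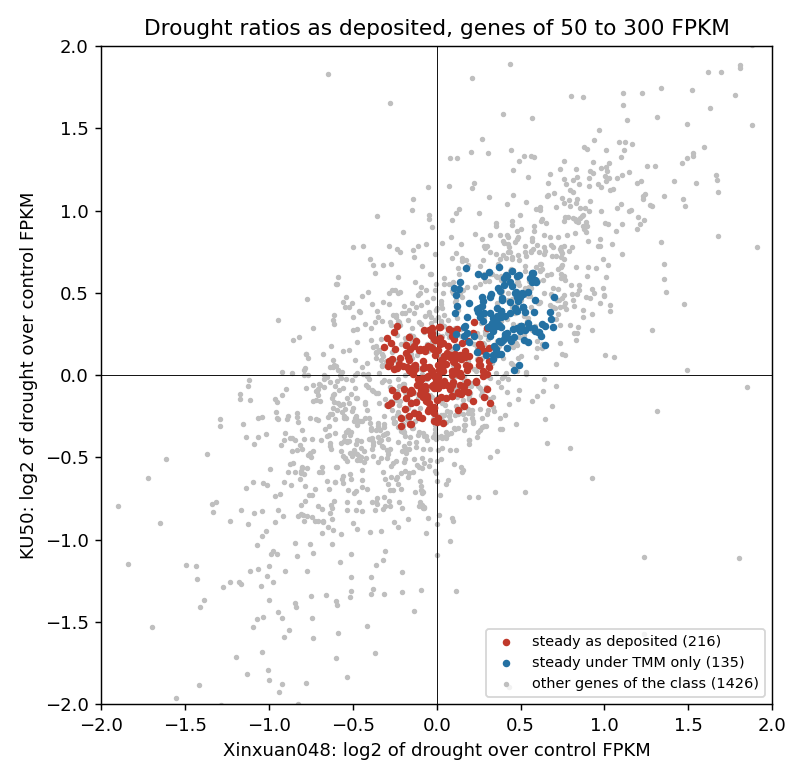
Log2 ratio of drought over control FPKM as deposited, in Xinxuan048 (horizontal axis) and in KU50 (vertical axis), for the genes of 50 to 300 FPKM. Red points are the 216 steady genes, which the rule places around 0, and blue points the 135 genes that meet the rule after TMM scaling but not as deposited. Grey points are the other genes of the class. The blue points lie up and to the right of 0, as the TMM factors fix, and 79 genes lie beyond the axes.

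Steadiness depended on the scale on which it was judged. The libraries were rescaled in 7 other ways, 6 of them by a single factor per library. TMM (trimmed mean of M values) makes the typical gene equal between libraries, after trimming the largest and smallest ratios. Its factors were 0.915 for Xinxuan048 drought, 1.21 for Xinxuan048 control, 0.841 for KU50 drought and 1.07 for KU50 control. Under TMM, 12 of the 216 steady genes (5.56%) still had all 4 values within 25%. The ratio of highest to lowest had a median of 1.47 and reached 1.79. All 216 genes stood above their own mean in Xinxuan048 control and below it in KU50 drought, and the highest library was Xinxuan048 control for 201 genes and KU50 control for 15. Evenness as deposited together with these factors largely fixes that pattern. The median log2 ratio of drought over control became -0.41 in Xinxuan048 and -0.32 in KU50. Under TMM the median over the 19459 genes was 0.022 in Xinxuan048 and -0.0063 in KU50.

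MANES_03G090800 shows what this means for 1 gene. Its TMM-scaled FPKM were 95.2 in Xinxuan048 drought, 125.2 in Xinxuan048 control, 85.7 in KU50 drought and 109 in KU50 control. The most even gene as deposited thus had a ratio of highest to lowest of 1.46, lower under drought than in control in both cultivars. The other 7 genes described first had ratios of 1.35 to 1.48 under TMM.

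The other scalings kept between 11 and 185 of the genes. With totals scaled to a common value, 184 of the 216 stayed within 25%. Centring the class of 50 to 300 FPKM on its own median ratio kept 185, and quantile normalization, which gives every library the same set of values, kept 161. A common total without abundant, short and unplaced loci kept 108, and a common upper quartile kept 53. The median of ratios over all genes listed in all libraries kept 11. A factor scaling multiplies every gene of a library alike, and fewer genes stayed where the factors lay far apart. The largest factor over the smallest was 1.04 for totals, 1.06 for the class median, 1.19 for the total without those loci, 1.296 for the upper quartile, 1.44 for TMM and 1.45 for the median of ratios.

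Applied afresh on each scale, the rule gave lists that overlapped to very different degrees. The share of the class that was steady was 12% with a common total, 13% with the class centred on its own median and 12.3% with quantile normalization. It was 10.9% for the total without abundant, short and unplaced loci, 9.46% for the upper quartile, 8.3% for TMM and 8.36% for the median of ratios. Of the genes found on the other scale, the steady genes made up 86.4% of 213 with a common total, 80.1% of 231 with the class centred and 74.2% of 217 with quantile normalization. They made up 56.0% of 193 for the total without those loci, 31.7% of 167 for the upper quartile and 7.43% of 148 for the median of ratios. TMM gave 147 genes, and the 12 shared ones are 5.56% of the 216 and 8.16% of the 147. For the 135 others the TMM factors fix that the deposited value is higher under drought in both cultivars. Their median level was 79.8 FPKM in Xinxuan048 drought, against 61.2 in Xinxuan048 control, and 90.0 in KU50 drought, against 67.2 in KU50 control. Their median ratio of highest to lowest was 1.45 as deposited and 1.18 under TMM.

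**Figure D3:**
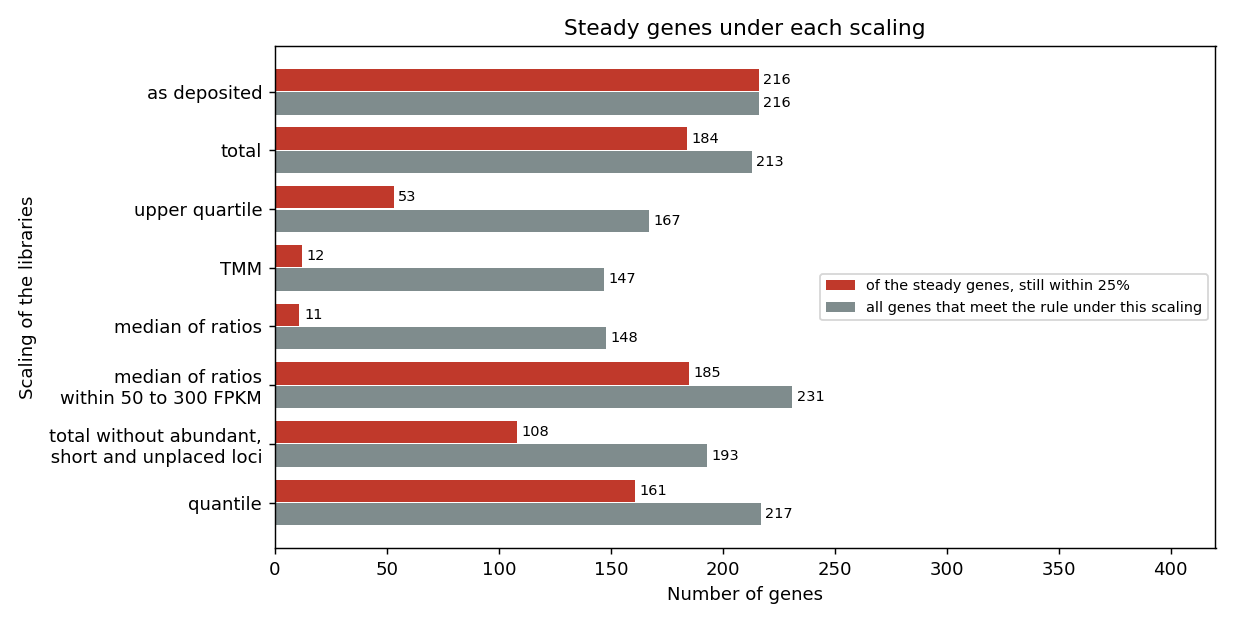
Number of genes (horizontal axis) by scaling of the libraries (rows). Red bars count the 216 steady genes that still have all 4 values within 25%, and grey bars all genes that meet the whole rule under that scaling. The red bars run from 11 genes with the median of ratios to 216 as deposited, while the grey bars run from 147 to 231.

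Ratios of one gene to another within a library do not change under a factor scaling. The sets compared here were nevertheless each chosen on a particular scale, from these same values. MANES_12G084300 divided by MANES_03G090800 was 1.26 in Xinxuan048 drought, 1.296 in Xinxuan048 control, 1.34 in KU50 drought and 1.33 in KU50 control. That ratio varied by a factor of 1.07 over the libraries. Among all 23220 pairs of steady genes, 50.3% had a ratio that held within 25% over the libraries. Pairs of the 135 genes steady under TMM alone held in 52.3% of 9045 cases. A steady gene paired with one of those 135 held in 8.02% of 29160 cases, with a median spread of 1.497. Paired with any other gene of the class, a steady gene held in 4.20% of 308016 cases, with a median spread of 1.79. Pairs within a set held more often than pairs across sets, which the choice of each set on its own scale bears on.

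A small group held on every scale, most of it narrowly. Of the 216 genes, 6 stayed within 25% as deposited and under all 7 rescalings, 103 on at least 5 of the 8 scales, and 66 on at most 3. No other gene of the class did so under all 7 rescalings. MANES_03G021500, at bases 1754165 to 1758141 of chromosome 3, had the smallest spread at its least favourable scale. Its level was 75.1 FPKM in Xinxuan048 drought, 66.8 in Xinxuan048 control, 78.6 in KU50 drought and 72.7 in KU50 control. Its ratio of highest to lowest was 1.18 as deposited, 1.23 under TMM and at most 1.24. MANES_06G095500, on chromosome 6 from 20770738 to 20774518, had 71.5 FPKM in Xinxuan048 drought, 58.8 in Xinxuan048 control, 69.4 in KU50 drought and 62.6 in KU50 control, and its ratio was at most 1.24.

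MANES_16G121100, on chromosome 16 from 27351938 to 27358358, had 65.1 FPKM in Xinxuan048 drought, 54.8 in Xinxuan048 control, 63.8 in KU50 drought and 56.0 in KU50 control. MANES_11G019000, on chromosome 11 from 1815284 to 1817858, had 92.4 FPKM in Xinxuan048 drought, 83.2 in Xinxuan048 control, 96.7 in KU50 drought and 84.4 in KU50 control. MANES_02G046300, on chromosome 2 from 3565939 to 3567438, had 64.3 FPKM in Xinxuan048 drought, 56.8 in Xinxuan048 control, 67.5 in KU50 drought and 66.1 in KU50 control. Of these 3 genes MANES_11G019000 had the highest level in every library. MANES_14G043700, on chromosome 14 from 3488390 to 3489789, had 61.3 FPKM in Xinxuan048 drought, 51.8 in Xinxuan048 control, 62.7 in KU50 drought and 56.8 in KU50 control. A gene within 25% on both the deposited and the TMM scale must be higher under drought on the first and lower on the second, because the factors move all genes alike, so these directions are fixed by the choice. MANES_14G043700, for example, had 56.1 TMM-scaled FPKM in Xinxuan048 drought, 62.8 in Xinxuan048 control, 52.8 in KU50 drought and 60.9 in KU50 control. None of the 6 was among the 8 most even genes as deposited. At its least favourable scale MANES_16G121100 had a ratio of 1.24819, MANES_11G019000 of 1.24952, MANES_02G046300 of 1.24993 and MANES_14G043700 of 1.24996. These ratios lay just inside the limit of 25%, and no replicate shows how far such a ratio would vary.

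**Figure D4:**
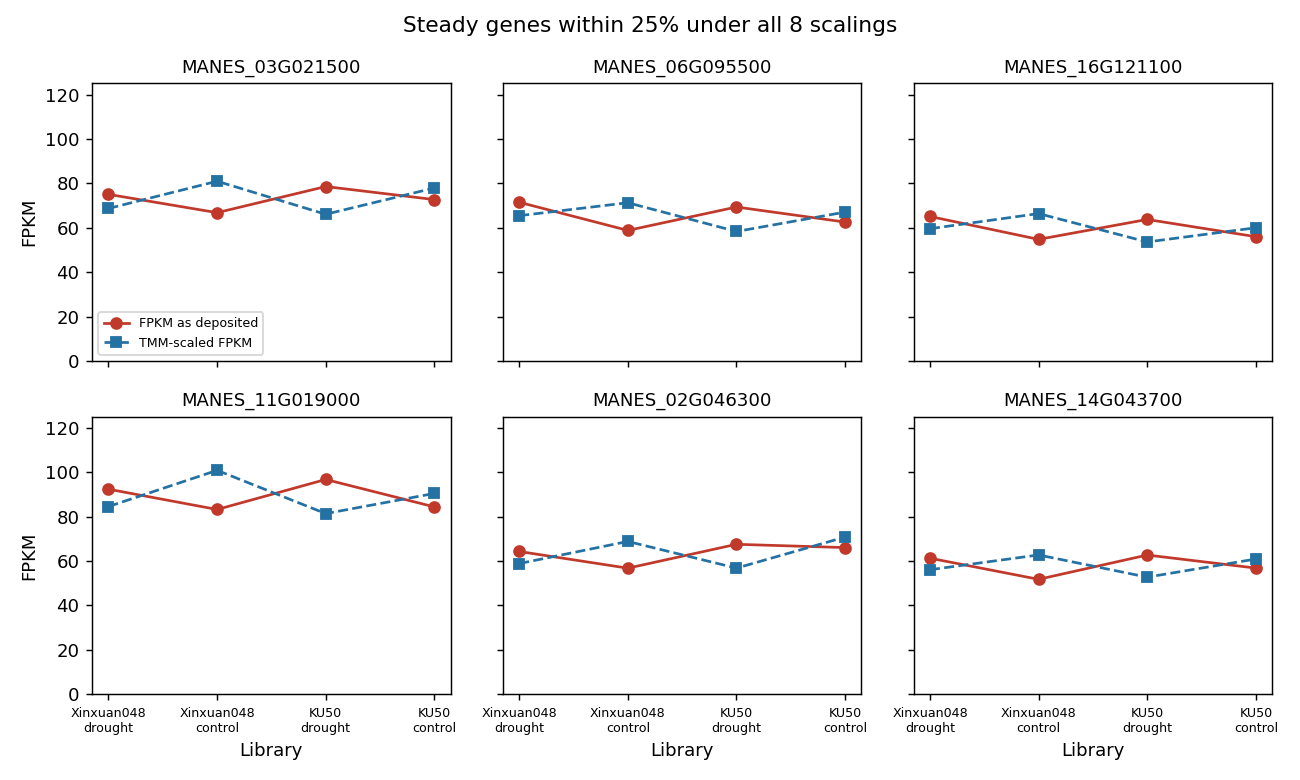
FPKM (vertical axis, from 0) in the 4 libraries (horizontal axis) for the 6 steady genes that stayed within 25% on all 8 scales. Red circles are values as deposited and blue squares TMM-scaled values. The values of each gene lie within 25% on either scale, and the choice of genes even on both fixes that red points are higher and blue points lower under drought than in control.

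A further 6 genes stayed within 25% on 7 of the 8 scales. Those with the lowest ratio at their least favourable scale are given here. MANES_08G116900 on chromosome 8 had 93.2 FPKM in Xinxuan048 drought, 80.3 in Xinxuan048 control, 97.4 in KU50 drought and 81.6 in KU50 control, and missed the limit with a common total alone, at a ratio of 1.2518. MANES_15G077000 on chromosome 15 had 54.3 FPKM in Xinxuan048 drought, 50.5 in Xinxuan048 control, 60.2 in KU50 drought and 51.7 in KU50 control, and missed it only with the median of ratios, at 1.26. At the other end, MANES_01G003200 was within 25% on the deposited scale alone. It had 46.4 FPKM in Xinxuan048 drought, 57.8 in Xinxuan048 control, 57.9 in KU50 drought and 51.5 in KU50 control.

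Locus span was only bounded from below by the rule, and the median steady gene had a longer locus than the median of the rest of the class. The median span was 3845 bases for the steady genes, against 2933 for the rest. It was 3571 for the 135 genes steady under TMM alone. Over the 19459 genes listed in all 4 libraries with a mean of at least 1 FPKM it was 3658, so the rest of the class was short beside these. The longest was MANES_10G039400, which spans 22865 bases on chromosome 10, and the shortest MANES_08G127500, with 612 on chromosome 8. MANES_10G039400 had 62.4 FPKM in Xinxuan048 drought, 52.4 in Xinxuan048 control, 53.8 in KU50 drought and 51.6 in KU50 control. MANES_08G127500 had 145 FPKM in Xinxuan048 drought, 148 in Xinxuan048 control, 168 in KU50 drought and 142 in KU50 control, with KU50 drought apart from the other libraries.

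The steady share of the class was 6.77% among 133 loci of 500 to 1000 bases, 8.89% from 1000 to 2000, 10.6% from 2000 to 4000, 15.4% from 4000 to 8000 and 23.5% among 132 loci of 8000 or more. The median ratio of highest to lowest fell in the same order, with 1.90 in the shortest bin and 1.45 in the longest. The median level was alike, between 78.8 and 84.4 FPKM in every bin. Under TMM the same shares were 6.15%, 4.59%, 9.18%, 11.04% and 6.77%, and the highest share was at 4000 to 8000 bases. The median ratio under TMM still fell with span, with 2.16 in the shortest bin and 1.61 in the longest. The spans are those of loci, introns included, not of transcripts, and the part of transcript length and of fragment number in this was not tested.

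Level mattered in a way that also changed with the scale. With the span and listing criteria kept, the share of genes within 25% as deposited was 0.973% between 1 and 3 FPKM, 3.91% between 3 and 10, 8.51% between 10 and 30 and 11.1% between 30 and 50. It was 12.4% between 50 and 100, 11.2% between 100 and 200, 13.4% between 200 and 300, 10.1% between 300 and 1000 and 1.92% of the 52 genes above that. Under TMM it was highest between 10 and 30 FPKM, at 20.7%, and was 9.46% between 50 and 100 and 4.44% between 200 and 300.

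**Figure D5:**
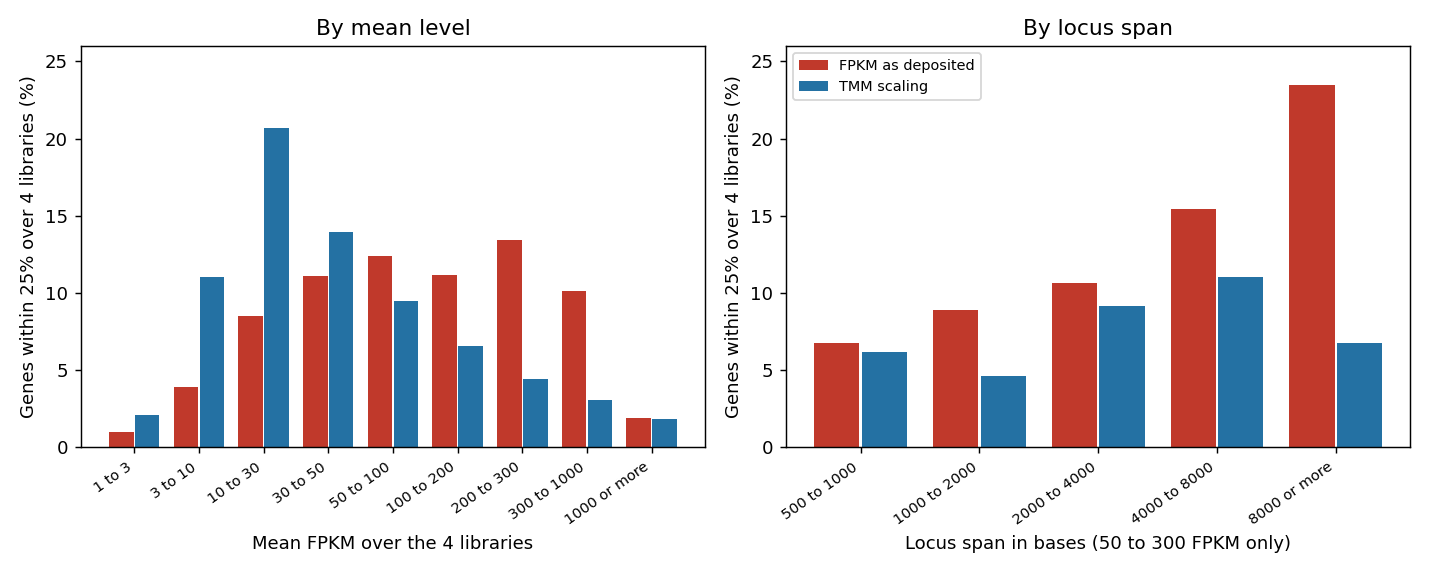
Share of genes whose 4 values lie within 25% (vertical axis, percent) by mean FPKM on the left and, for genes of 50 to 300 FPKM, by locus span in bases on the right. Red bars are FPKM as deposited and blue bars TMM-scaled values. As deposited the share is 23.5% for spans of 8000 bases or more, and under TMM it is highest, 20.7%, for genes of 10 to 30 FPKM.

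Steady genes lay on all 18 chromosomes. Chromosome 1 held 29 of them, 19.5% of its genes of the class, and chromosome 7 held 3, or 4.62%. The shares of the others were between 7.63% on chromosome 9 and 15.3% on chromosome 3. The median gap between consecutive steady genes of a chromosome was 902003 bases. A gap under 20000 bases separated 5 of the 198 consecutive pairs, and 2 of those 5 had no listed gene between them. Gaps for the other genes of the class are not given, so neither value marks out the steady genes.

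One of these pairs was MANES_05G193700 and MANES_05G193800 on chromosome 5, 2963 bases apart. MANES_05G193700 had 47.1 FPKM in Xinxuan048 drought, 53.0 in Xinxuan048 control, 52.4 in KU50 drought and 48.6 in KU50 control. Its neighbour had 103 FPKM in Xinxuan048 drought, 115 in Xinxuan048 control, 113 in KU50 drought and 119.7 in KU50 control, so the 2 ran alike in Xinxuan048 and opposite in KU50. The other adjacent pair was MANES_12G084200 and MANES_12G084300 on chromosome 12, 16253 bases apart. MANES_12G084200 had 265 FPKM in Xinxuan048 drought, 261 in Xinxuan048 control, 228 in KU50 drought and 250.1 in KU50 control. As deposited it was lower in KU50, where MANES_12G084300, given above, was slightly higher.

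With 1 listed gene between them lay 3 pairs: MANES_01G239500 and MANES_01G239700, MANES_03G211600 and MANES_03G211800, and MANES_13G123900 and MANES_13G124100. MANES_13G124100 had 245 FPKM in Xinxuan048 drought, 241 in Xinxuan048 control, 243 in KU50 drought and 228 in KU50 control. MANES_13G123900 had 65.3 FPKM in Xinxuan048 drought, 57.1 in Xinxuan048 control, 60.4 in KU50 drought and 55.7 in KU50 control, and was the lower of the 2 in every library. MANES_01G239500 had 300.8 FPKM in Xinxuan048 drought, 268 in Xinxuan048 control, 262 in KU50 drought and 279 in KU50 control. MANES_01G239700 had 65.4 FPKM in Xinxuan048 drought, 80.5 in Xinxuan048 control, 76.7 in KU50 drought and 65.6 in KU50 control, and ran opposite to its neighbour under drought in both cultivars. MANES_03G211600 had 62.3 FPKM in Xinxuan048 drought, 57.2 in Xinxuan048 control, 52.1 in KU50 drought and 50.2 in KU50 control. MANES_03G211800 had 68.5 FPKM in Xinxuan048 drought, 69.8 in Xinxuan048 control, 71.6 in KU50 drought and 58.6 in KU50 control, with KU50 control apart from the other libraries.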

How the data were processed

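Leaf RNA of cassava was measured in 4 libraries, grouped by the cultivar and stress given in the labels. The authors deposited 1 FPKM value per gene and library, a unit taken from the file headers. The submitters' processing notes name TopHat2 2.0.12 and Cufflinks without settings; the sources used here give no Cufflinks version, build or annotation. Depth is unknown.

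A gene absent from a file was unlisted. Span was end minus start; starts are printed 1 base higher than deposited, since Cufflinks counts starts from 0. The limit was a highest-to-lowest ratio of 1.25. TMM factors used unweighted log2 ratios, trimming 30% of ratios and 5% of means at each end. The upper quartile was taken over genes averaging 1 FPKM or more. Unlisted genes counted as 0 in totals and quartiles. TMM, both median-of-ratios scalings and the upper quartile were checked on simulated libraries with known factors. Few genes changed in that simulation, so it does not show how the scalings fare on these data. Quantile normalization and the scalings by totals were not checked. Python 3.11.15, pandas 2.3.3 and matplotlib 3.10.9 were used.

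The members and settings were chosen with earlier results of these data known. No statistical test was made, because the rule used all 4 libraries and each group holds 1. Named genes were the 8 with the lowest ratio, the 8 with the lowest least favourable ratio over the scalings, the 3 on each side of the limit, the extremes of level and span, and members within 20000 bases of each other. Gene lists and cell type markers needed gene names and were not applied.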

Additional observations from a re-analysis of the deposited data

Results flagged for a closer look

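Some results ran in opposite directions in the cultivars, and none of these differences was tested, since each direction rests on 1 library against 1. The median log2 ratio of drought over control of the 216 steady genes was -0.00431 in Xinxuan048 and 0.0296 in KU50. The signs were opposite as deposited alone: both medians were positive with a common total, at 0.0247 in Xinxuan048 and 0.0870 in KU50, and both were negative under the other 6 rescalings. Single steady genes had opposite drought directions in the cultivars in 96 cases, all within the limit of 25%.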

How the results depend on the processing

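The count of 216 steady genes moved with the limit, to 132 at 20%, 328 at 30% and 689 at 50%, and with the level, to 384 at 30 to 300 FPKM, 72 at 100 to 300 and 695 at 10 to 50. Over 3 libraries it was 367 without KU50 control, 378 without Xinxuan048 drought, 401 without Xinxuan048 control and 460 without KU50 drought; fewer libraries set fewer conditions. It stayed within 1.5 times under the 7 scalings, other span minimums, unplaced loci kept, no upper level and FPKM + 1. Which genes were steady changed more: 108 of the 216 stayed with a total without abundant, short and unplaced loci, 53 with the upper quartile, 12 with TMM and 11 with the median of ratios, and 197 were among the 216 lowest coefficients of variation. The steady share of the class, 12.2% as deposited, was 9.46% with the upper quartile, 8.30% with TMM and 8.36% with the median of ratios.

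The median log2 ratios of the 216 genes, given for drought over control in Xinxuan048, then in KU50, then for Xinxuan048 over KU50 under drought, then in control, moved as the factors set. They were 0.0247, 0.0870, 0.00412 and 0.0469 with a common total, and -0.302, -0.225, 0.0962 and 0.154 with the upper quartile. TMM gave -0.409, -0.320, 0.143 and 0.212, and the median of ratios -0.443, -0.324, 0.121 and 0.220. Centring the class gave -0.0352, -0.0578, 0.0326 and -0.00962. The total without abundant, short and unplaced loci gave -0.171, -0.145, 0.0993 and 0.105, and quantile normalization -0.0309, -0.0686, 0.0646 and 0.0421. Of 245 ratios of the 35 named genes under the 7 rescalings, 90 left the limit and 3 came within it. Depth is unknown, and with 1 library per group no replicate limits these values.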

Other observations

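Steady genes also lay outside the abundance class. Among 210 chromosomal genes of at least 500 bases with a mean of 300 FPKM or more, 17 had all 4 values within 25%. The most even of them, MANES_13G109000 on chromosome 13, had 324 FPKM in Xinxuan048 drought, 320.5 in Xinxuan048 control, 324 in KU50 drought and 318 in KU50 control, a ratio of highest to lowest of 1.02. That ratio became 1.43 under TMM. The most abundant, MANES_03G132900 on chromosome 3, had 1209 FPKM in Xinxuan048 drought, 1007 in Xinxuan048 control, 1190 in KU50 drought and 1008 in KU50 control. It stayed within 25% on 7 of the 8 scales, quantile normalization being the exception at a ratio of 1.86. MANES_09G116000 on chromosome 9 had 346 FPKM in Xinxuan048 drought, 315 in Xinxuan048 control, 341 in KU50 drought and 325 in KU50 control. These 3 genes were chosen after their values were seen.

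On unplaced sequences, 2 of 26 genes of 50 to 300 FPKM were within 25%. MANES_S074100 had 207 FPKM in Xinxuan048 drought, 206 in Xinxuan048 control, 213 in KU50 drought and 176 in KU50 control. MANES_S075500 had 141 FPKM in Xinxuan048 drought, 151 in Xinxuan048 control, 159 in KU50 drought and 137 in KU50 control. Among 37 chromosomal loci under 500 bases with the same mean level and listed in every library, 0 were within 25%.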
